A study of Ambystoma mexicanum with 5 samples.

Results

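Sterol synthesis, lipoproteins and cholesterol transport were followed as 47 gene symbols in kidney RNA of a salamander, the axolotl (Ambystoma mexicanum). The symbols were chosen by function, with earlier results of these data known. They comprise 17 enzymes from the mevalonate pathway to cholesterol, 4 sterol-sensing genes (the SREBP factors among them) and 3 enzymes of fatty acid synthesis. The other 23 are apolipoproteins, receptors, transporters and lipid-handling enzymes. All symbols were matched to the gene names of the deposited count table. Each gene model (a gene as predicted in that annotation) is a row of its own there. Of the 47 symbols 45 matched, giving 70 of 100758 gene models. APOC2 and ABCG5 matched no name. A count was present in at least 1 library for 64 of the 70 models, and 59 passed the filter on low counts and were tested. Symbols with several models numbered 13, and where models of a symbol are neighbours or paralogs the assignment of reads among them is uncertain. The series set 2 axolotls with gentamicin-induced kidney injury (libraries labelled 1 and 3) beside 3 untreated control axolotls (libraries 1, 2 and 3), with 1 animal per library. Gentamicin is an aminoglycoside antibiotic that damages the proximal tubule. Strain, age, dose and interval are not used here, and no genetic change is named for either group. The study's subject is kidney regeneration, and the groups are set against each other to find the transcripts that injury alters.

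Cholesterol is built from acetyl-CoA through mevalonate, isoprenoids, squalene and a series of sterol intermediates, and in vertebrates the genes of these enzymes are activated by SREBP transcription factors when membrane sterol is low. Lipoproteins carry cholesterol and triglyceride between organs: APOB and MTTP build the large particles, mainly in liver and gut, APOA1 forms the small ones, and APOE directs remnants to receptors. Cells take up lipoprotein through receptors, release its cholesterol in lysosomes through NPC1 and NPC2, store it as esters made by SOAT1, or export it through ABCA1 and ABCG1. Proximal tubule cells are rich in lipid-handling genes in mammals, and macrophages use the same export genes when they take up cell debris.

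The gentamicin libraries held 15163723 and 16404879 counts, and the control libraries 13674201, 15087765 and 14884904. At this depth a count of 0 allows up to 3 counts, which stand for 0.156 to 0.244 CPM (counts relative to library size, scaled with TMM factors throughout). Spearman correlations over the 22006 tested genes were 0.965 to 0.981 within groups and 0.881 to 0.903 between groups. The renal transcription factor PAX2 was present in all libraries: the model (chromosome 8p, 636504480 to 636906929) had 64.3 and 67.9 CPM in gentamicin kidneys, against 65.7, 76.1 and 66.0 CPM in control kidneys. Of the 18 tested models on the list of genes of any kidney segment 4 were lower, PAX8 (-0.37 on the log2 scale), CDH16 (-0.59), SLC12A1 (-0.52) and SLC12A3 (-0.85), and 1 UMOD model was higher (1.65). Of all genes tested, 13.4% were lower and 13.3% higher (edgeR adjusted p under 0.05). The kidney list was at 22.2% lower and 5.56% higher. It had 2253 and 2582 summed CPM in gentamicin kidneys, against 3486, 3972 and 3289 in control kidneys. Marker lists of other cells were read beside the members. All 19 tested proximal tubule models were lower, at 348 and 360.3 summed CPM in gentamicin kidneys, against 7934, 7273 and 6604 in control kidneys. Of 16 tested macrophage models 14 were higher, at 2681 and 2169 summed CPM in gentamicin kidneys, against 399, 417 and 278 in control kidneys, while 5 of the 22 models on that list, CD163 among them, were at 0 counts in every library. In bulk tissue fewer cells of a type and less RNA per cell cannot be told apart.

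Most transcripts of sterol synthesis (13 of 17 tested models) and of lipoprotein assembly (9 of 15) were lower in gentamicin kidneys, and those of LRP1, SOAT1 and the ABCA1 model with the highest FPKM (a unit that allows for gene length and library size) were higher. Of the 59 tested member models 29 were lower and 8 higher in edgeR's quasi-likelihood test (adjusted p under 0.05), and 22 did not pass. Over all 22006 genes tested, 26.8% were called, 13.4% lower and 13.3% higher. The members' share was thus 49.2% lower and 13.6% higher. Their median log2 fold change was -0.80 (also with a model without gentamicin counts set to its bound), against 0.01 for all genes. CPM values of the groups did not overlap for 47 of the 59, against 55.3% of all genes. Scaled to total counts, 6192 genes were higher and 1895 lower (76.6% of calls higher, against 49.8%), a shift of 0.32 in the median log2 fold change, and 10 members were then higher and 24 lower. With 1 gentamicin library left out, all genes had 1333 higher and 1739 lower (without library 1) or 1368 and 1627 (without library 3), and the members had 7 higher with 22 or 23 lower. All members together took 0.447% and 0.445% of counts in gentamicin libraries, against 0.871%, 0.837% and 0.829% in control libraries. APOE alone made up 40.9% and 33.5% of member counts in gentamicin libraries and 46.5%, 45.8% and 41.9% in control libraries. No other model weighs as much in sums over all members. The proximal tubule list was lower and the macrophage list higher in the same libraries, and their part in the members' differences was not tested.

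**Figure D1:**
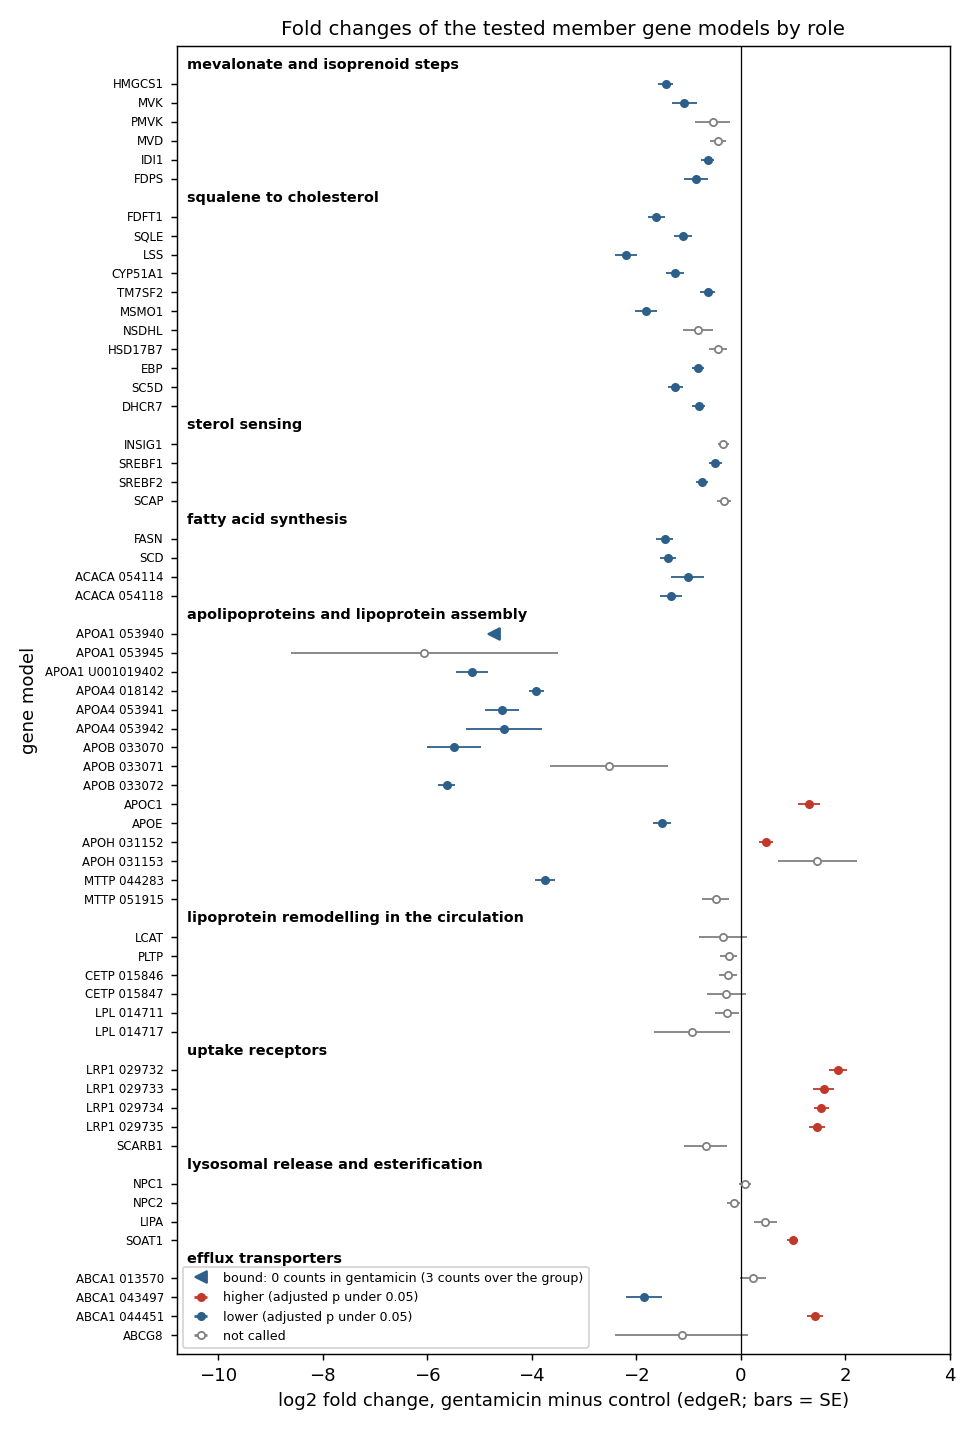
Log2 fold changes (gentamicin minus control, with SE bars from edgeR) of the 59 tested member models, grouped by role; blue points are lower and red points higher at an adjusted p under 0.05, open points did not pass, and the triangle is the bound of an APOA1 model without gentamicin counts. All 17 sterol synthesis models lie left of 0, the APOA1 and APOA4 models and 2 of the 3 APOB models lie farthest left, and the 4 LRP1 models lie between 1.46 and 1.86.

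The mevalonate and isoprenoid steps, which turn acetyl-CoA into farnesyl diphosphate, had 4 of 6 tested models lower and none higher. Their median log2 fold change was -0.75. Lower models made up 66.7% here, whereas 13.4% of all genes were lower and 13.3% higher. HMGCS1 (chromosome 6p, 378197385 to 378354549), which condenses acetyl-CoA with acetoacetyl-CoA, had 101 and 97.2 CPM in gentamicin kidneys, against 244, 249 and 313 CPM in control kidneys (log2 fold change -1.44 ± 0.15 SE, edgeR adjusted p = 0.000226). The gentamicin values lay 2.70-fold lower on the fitted scale, and every control library lay above both gentamicin libraries. MVK, which phosphorylates mevalonate, had 7.44 and 7.91 CPM in gentamicin kidneys, against 12.1, 20.1 and 16.3 CPM in control kidneys (log2 fold change -1.08 ± 0.23 SE, edgeR adjusted p = 0.0107). IDI1, the isopentenyl diphosphate isomerase, had 49.1 and 47.5 CPM in gentamicin kidneys, against 69.9, 81.5 and 73.7 CPM in control kidneys in the model with the highest FPKM (log2 fold change -0.64 ± 0.12 SE, edgeR adjusted p = 0.00530). FDPS, which joins the isoprene units into farnesyl diphosphate, had 51.0 and 55.8 CPM in gentamicin kidneys, against 91.7, 73.0 and 127 CPM in control kidneys (log2 fold change -0.86 ± 0.23 SE, edgeR adjusted p = 0.02995). The groups were apart for each of these genes, as for 55.3% of all genes, but FDPS varied widely among controls. The decarboxylase MVD also had separate groups, at 50.0 and 53.0 CPM in gentamicin kidneys, against 57.0, 70.6 and 81.1 CPM in control kidneys, and did not pass (edgeR adjusted p = 0.0790). PMVK, the kinase between MVK and MVD, overlapped between groups at 3.57 and 7.39 CPM in gentamicin kidneys, against 7.49, 9.60 and 6.86 CPM in control kidneys (edgeR adjusted p = 0.277). AMEX60DD000460 and AMEX60DD011735, also named IDI1, held at most 4 counts in any library and were not tested.

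Calls in this stretch differed in how far they held. HMGCS1 passed in every one of the 17 alternative analyses. MVK did not pass without gentamicin library 1, without gentamicin library 3 or on unfiltered FPKM (adjusted p over all alternatives 9.14e-06 to 0.0982). IDI1 did not pass with total-count scaling or without gentamicin library 3 (adjusted p 4.82e-05 to 0.0752). FDPS did not pass in 6 of 17, among them total-count scaling, the FPKM fits and the removal of either gentamicin library (adjusted p 7.64e-08 to 0.197). MVD passed without control library 1 and without a filter on low counts (adjusted p 0.0141 to 0.630).

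The branch from squalene to cholesterol had 9 of 11 tested models lower and none higher, with a median log2 fold change of -1.10. That is 81.8% lower, against 13.4% lower and 13.3% higher among all genes. The groups were apart for all 11, against 55.3% of all genes. FDFT1 (chromosome 4p, 178736151 to 179008869), squalene synthase, the first enzyme committed to sterols, had 72.0 and 82.7 CPM in gentamicin kidneys, against 206, 229 and 276 CPM in control kidneys (log2 fold change -1.61 ± 0.16 SE, edgeR adjusted p = 0.000186). SQLE, squalene epoxidase, had 28.2 and 35.0 CPM in gentamicin kidneys, against 61.9, 62.0 and 80.0 CPM in control kidneys (log2 fold change -1.10 ± 0.17 SE, edgeR adjusted p = 0.00187). Both differences exceed the spread among control animals, whose highest library was control 3 for each. LSS (chromosome 9q, 390479685 to 390795395), which closes the ring to lanosterol, had 15.7 and 17.9 CPM in gentamicin kidneys, against 92.5, 58.8 and 79.6 CPM in control kidneys (log2 fold change -2.19 ± 0.21 SE, edgeR adjusted p = 0.000209). This was the largest change of the 17 synthesis models, 4.57-fold lower.

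Demethylation of lanosterol starts with CYP51A1, which had 43.8 and 53.2 CPM in gentamicin kidneys, against 104, 104 and 141 CPM in control kidneys (log2 fold change -1.26 ± 0.18 SE, edgeR adjusted p = 0.00133). MSMO1 (chromosome 6q, 831641645 to 831696583), the sterol methyl oxidase, had 29.2 and 37.1 CPM in gentamicin kidneys, against 119, 90.5 and 141 CPM in control kidneys (log2 fold change -1.82 ± 0.21 SE, edgeR adjusted p = 0.000716), 3.52-fold lower. TM7SF2, a sterol reductase, had 70.7 and 94.0 CPM in gentamicin kidneys, against 126, 124 and 133 CPM in control kidneys (log2 fold change -0.63 ± 0.14 SE, edgeR adjusted p = 0.0131). Its gentamicin libraries stood apart from each other, and the call was lost without gentamicin library 1, with total-count scaling and on unfiltered FPKM (adjusted p over all alternatives 0.000144 to 0.165). The dehydrogenase NSDHL had 4.40 and 4.94 CPM in gentamicin kidneys, against 6.59, 6.98 and 11.3 CPM in control kidneys and did not pass (edgeR adjusted p = 0.0699); it passed without control library 1 and without a filter (adjusted p 0.0207 to 0.296). HSD17B7, the ketosteroid reductase of the same complex, had 15.1 and 18.4 CPM in gentamicin kidneys, against 26.1, 21.1 and 20.5 CPM in control kidneys and did not pass either (edgeR adjusted p = 0.1003). NSDHL and HSD17B7 each overlap another model with at least 10% as many counts, so their reads cannot be assigned with certainty.

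The last steps were lower as well. EBP, the sterol isomerase, had 47.7 and 43.3 CPM in gentamicin kidneys, against 79.0, 76.1 and 85.8 CPM in control kidneys (log2 fold change -0.82 ± 0.12 SE, edgeR adjusted p = 0.00149). SC5D, the sterol desaturase, had 40.2 and 49.3 CPM in gentamicin kidneys, against 115, 94.3 and 110.1 CPM in control kidneys (log2 fold change -1.25 ± 0.15 SE, edgeR adjusted p = 0.00047). DHCR7, the reductase that makes cholesterol, lies on scaffold C0016476 and had 75.1 and 76.5 CPM in gentamicin kidneys, against 135, 119 and 143 CPM in control kidneys (log2 fold change -0.80 ± 0.12 SE, edgeR adjusted p = 0.00194). All 3 genes were separate between groups, as were 55.3% of all genes, and passed in every alternative.

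**Figure D2:**
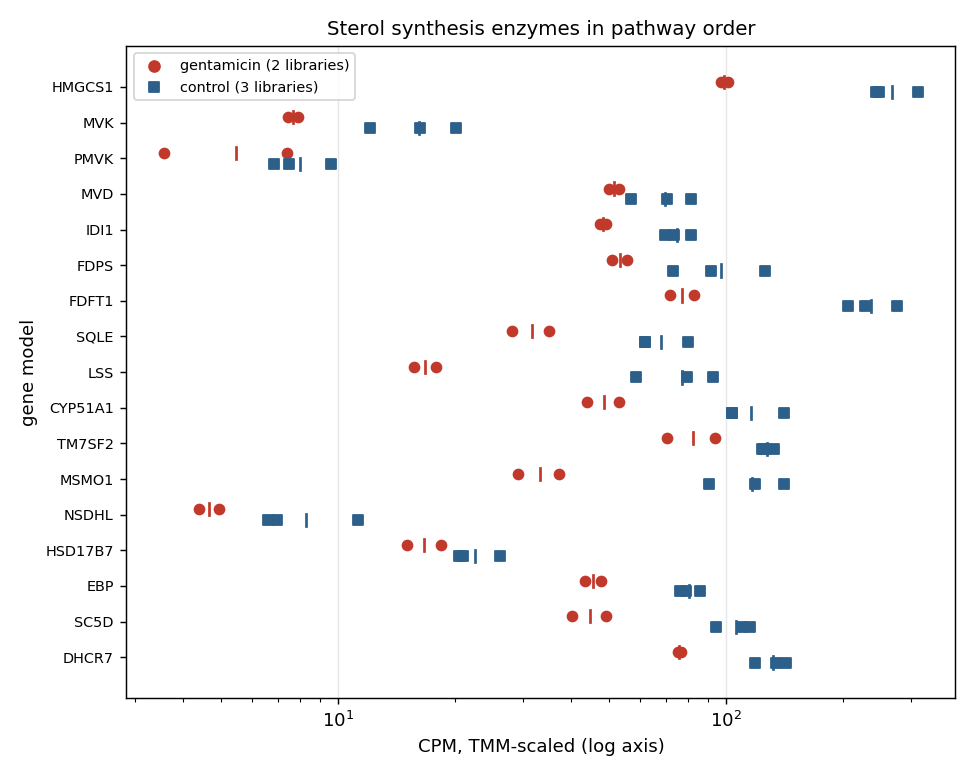
CPM (log axis) of the 17 tested sterol synthesis models in pathway order, HMGCS1 at the top and DHCR7 at the bottom; red circles are the 2 gentamicin libraries, blue squares the 3 control libraries and vertical ticks the group means. The groups are apart in 16 models, against 55.3% of all genes, and overlap in PMVK.

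Of the 17 synthesis models 13 were lower and none higher, or 76.5% lower, against 13.4% of all genes, and the median log2 fold change was -0.86. The range ran from -0.43 (HSD17B7 and MVD) to -2.19 (LSS). Every fitted fold change was negative here and in every alternative, total-count scaling included. The number called lower was 10 without gentamicin library 1, 10 without gentamicin library 3 and 15 without control library 1. With the untested IDI1 models they had 705 and 781 summed CPM in gentamicin kidneys, against 1553, 1489 and 1839 in control kidneys. On the deposited FPKM scale, which divides by gene length, HMGCS1 had the highest mean level of the 17 in both groups, 26.0 FPKM in gentamicin kidneys and 70.2 in control kidneys, and HSD17B7 the lowest, 2.15 FPKM in gentamicin kidneys and 2.89 in control kidneys. In control kidneys MSMO1 and FDFT1 followed, with mean levels of 47.3 and 41.2 FPKM, whereas DHCR7 and IDI1 followed in gentamicin kidneys, with 19.2 and 18.4 FPKM. Animals also differed within a group: 11 of the 17 models were highest in control library 3 among controls, against 32.6% of all genes with a mean CPM of at least 1. In gentamicin library 3, 14 of the 17 stood above gentamicin library 1, against 49.3% of those genes.

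The group of SREBP factors and the proteins that hold or escort them according to membrane cholesterol had 2 of 4 tested models lower. Both were SREBP factors, and no model of the group was higher (median log2 fold change -0.41). As a share 50% were lower, against 13.4% lower and 13.3% higher among all genes. SREBF2 (chromosome 3q, 303080531 to 303481097), the factor that mainly drives sterol synthesis genes, had 103 and 120.4 CPM in gentamicin kidneys, against 191, 185 and 186 CPM in control kidneys (log2 fold change -0.75 ± 0.12 SE, edgeR adjusted p = 0.00232), and it passed in every alternative. SREBF1, the factor more tied to fatty acid synthesis, had 62.3 and 55.8 CPM in gentamicin kidneys, against 85.5, 88.3 and 75.1 CPM in control kidneys (log2 fold change -0.49 ± 0.12 SE, edgeR adjusted p = 0.0206). This smaller change was not called in 7 of 17 alternatives, among them the removal of either gentamicin library, total-count scaling and the label number as a block (adjusted p over all alternatives 0.00541 to 0.294). INSIG1, which holds the SREBP factors in the endoplasmic reticulum and is itself a sterol-regulated gene, had 66.3 and 61.9 CPM in gentamicin kidneys, against 85.0, 80.6 and 76.3 CPM in control kidneys and did not pass (edgeR adjusted p = 0.0614). SCAP, their escort protein, had 34.0 and 34.9 CPM in gentamicin kidneys, against 44.0, 47.0 and 38.2 CPM in control kidneys and did not pass (edgeR adjusted p = 0.109). The CPM of the groups did not overlap for either gene, as for 55.3% of all genes. The fold changes of INSIG1 and SCAP, -0.33 and -0.32 on the log2 scale, were near the shift of 0.32 that total-count scaling gives to all genes. INSIG1 passed in DESeq2 and with gene models of a symbol summed (adjusted p 0.0463 to 0.948), and SCAP passed without control library 3 (adjusted p 0.0492 to 0.998).

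Fatty acid synthesis, which shares its carbon source with sterols, was lower in all 4 tested models (median log2 fold change -1.37). Over all genes the share lower was 13.4%. FASN (chromosome 3q, 1322183729 to 1322480122), fatty acid synthase, had 67.3 and 73.9 CPM in gentamicin kidneys, against 161, 229.8 and 189 CPM in control kidneys (log2 fold change -1.45 ± 0.17 SE, edgeR adjusted p = 0.000428). SCD, the desaturase that makes oleate, had 17.6 and 19.1 CPM in gentamicin kidneys, against 44.3, 55.5 and 45.2 CPM in control kidneys (log2 fold change -1.40 ± 0.15 SE, edgeR adjusted p = 0.000295). ACACA, the carboxylase that makes malonyl-CoA, had 15.9 and 22.5 CPM in gentamicin kidneys, against 59.0, 42.5 and 43.9 CPM in control kidneys in the model with the highest FPKM (log2 fold change -1.33 ± 0.21 SE, edgeR adjusted p = 0.00273). A neighbouring ACACA model, AMEX60DD054114, had 1.78 and 2.29 CPM in gentamicin kidneys, against 4.97, 3.20 and 4.26 CPM in control kidneys (edgeR adjusted p = 0.0487) and was not called in 9 of 16 alternatives (adjusted p 0.0341 to 0.265). The groups were apart for all 4, against 55.3% of all genes. AMEX60DD051640, named SCD, and AMEX60DD054117, named ACACA, had no count in any library.

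Lipoprotein assembly had the largest decreases among the members. Of 15 tested apolipoprotein and assembly models 9 were lower, 2 higher and 4 not called, with a median log2 fold change of -3.91. The share higher was that of all genes, 13.3%, and the share lower was 60%, against 13.4%. APOB, the structural protein of very low density particles and chylomicrons, is split over 3 neighbouring models on chromosome 4p. AMEX60DD033072, the model with the highest FPKM (chromosome 4p, 293602443 to 293637899), had 27.5 and 26.3 CPM in gentamicin kidneys, against 1307, 1439 and 1251 CPM in control kidneys (log2 fold change -5.63 ± 0.16 SE, edgeR adjusted p = 1.95e-06), 49.5-fold lower. Its neighbour AMEX60DD033070 had 0.416 and 0.572 CPM in gentamicin kidneys, against 34.8, 16.9 and 16.5 CPM in control kidneys (log2 fold change -5.49 ± 0.52 SE, edgeR adjusted p = 0.000439). In both models every control library was far above both gentamicin libraries. AMEX60DD033071 held 6 counts in gentamicin libraries and 40 in control libraries and did not pass (edgeR adjusted p = 0.143). It overlaps AMEX60DD033070, and it passed without a filter (adjusted p 0.0307 to 0.461). Summed to 1 row, APOB was 49.2-fold lower (edgeR adjusted p = 9.54e-07). APOB made up 0.703% and 0.708% of member counts in gentamicin libraries, against 13.9%, 15.9% and 14.2% in control libraries.

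MTTP, which loads triglyceride onto APOB, was also lower. AMEX60DD044283, the model with the highest FPKM (chromosome 6q, 243719847 to 244082981), had 18.9 and 13.1 CPM in gentamicin kidneys, against 217, 198 and 224 CPM in control kidneys (log2 fold change -3.74 ± 0.19 SE, edgeR adjusted p = 5.85e-06). A model on another chromosome that also carries the name MTTP, AMEX60DD051915, overlapped between groups at 21.7 and 12.9 CPM in gentamicin kidneys, against 22.3, 20.9 and 29.1 CPM in control kidneys (edgeR adjusted p = 0.204), and it passed without a filter on low counts (adjusted p over all alternatives 0.0436 to 0.737). The difference between the 2 models was not tested. With their counts summed MTTP was 7.15-fold lower (edgeR adjusted p = 3.39e-05).

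Models named APOA1 and APOA4, the apolipoproteins of high density and gut lipoproteins, lie together on chromosome 9p between 175494993 and 176114776, with others on chromosome 1q and on unplaced scaffolds. An APOA1 model on a scaffold, AMEX60DDU001019402, had 5.06 and 4.11 CPM in gentamicin kidneys, against 144, 126 and 215 CPM in control kidneys (log2 fold change -5.14 ± 0.31 SE, edgeR adjusted p = 4.63e-05). It was 35.3-fold lower, with the highest value in control library 3. AMEX60DD053940 had 0 and 0 counts in gentamicin kidneys, against 31, 10 and 47 counts in control kidneys, at least 26.5-fold lower when 3 counts over the group are set in place of 0 (edgeR adjusted p = 0.00606). It was not called by limma on log2(FPKM + 1), filtered or not (adjusted p over all alternatives 1.82e-11 to 0.124). AMEX60DD053945 had 0.535 and 2.39 CPM in gentamicin kidneys, against 273, 10.6 and 18.1 CPM in control kidneys. Control library 1 stood far above the other controls there, and the model did not pass (edgeR adjusted p = 0.196). Without control library 1 its log2 fold change was -3.27 (edgeR adjusted p = 0.0332), and DESeq2 called it on all libraries (adjusted p = 0.00289; range over all alternatives 0.00289 to 0.467). A scaffold model, AMEX60DDU001018262, held 0 counts in gentamicin libraries and 4 in control libraries and was not tested.

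All 3 tested models named APOA4 were lower, against 13.4% of all genes. On chromosome 1q, AMEX60DD018142 had 4.64 and 4.84 CPM in gentamicin kidneys, against 73.8, 68.6 and 72.0 CPM in control kidneys (log2 fold change -3.91 ± 0.14 SE, edgeR adjusted p = 2.13e-06). On chromosome 9p, AMEX60DD053941 had 0.773 and 0.364 CPM in gentamicin kidneys, against 12.7, 13.5 and 14.2 CPM in control kidneys (log2 fold change -4.56 ± 0.33 SE, edgeR adjusted p = 3.53e-05), and AMEX60DD053942 had 0.595 and 0.312 CPM in gentamicin kidneys, against 4.07, 14.3 and 13.2 CPM in control kidneys (log2 fold change -4.53 ± 0.72 SE, edgeR adjusted p = 0.00553). Groups were apart for each, as for 55.3% of all genes, and control library 1 was the lowest control for AMEX60DD053942. AMEX60DD053942 spans its neighbours on both strands and overlaps AMEX60DD053941, AMEX60DD053943 and AMEX60DD053945, so reads of these models cannot be told apart with certainty. Its call was lost without gentamicin library 1, without gentamicin library 3 and on unfiltered FPKM (adjusted p 1.84e-28 to 0.0815). The unnamed AMEX60DD053943, which lies inside AMEX60DD053942 on the same strand, was chosen after its values were seen. It carries an apolipoprotein CIII domain in the deposited annotation and had 3 counts in gentamicin libraries and 202 in control libraries (log2 fold change -5.81, edgeR adjusted p = 0.000144). AMEX60DD053946 and AMEX60DDU001010993, named APOA4, had no count.

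APOE, the ligand that directs remnant particles to receptors, lies next to the 1q model AMEX60DD018142 (chromosome 1q, 536430458 to 536440164) and had the highest mean FPKM of all members in both groups. It had 1648 and 1269 CPM in gentamicin kidneys, against 4508, 4203 and 3733 CPM in control kidneys (log2 fold change -1.51 ± 0.17 SE, edgeR adjusted p = 0.000374), 2.84-fold lower with separate groups. On the FPKM scale its mean level was 173 FPKM in gentamicin kidneys and 491 in control kidneys, or rank 247 and rank 111 among all gene models in these groups. Macrophages, whose markers were higher in the gentamicin libraries, are a known source of APOE in mammals. Their part in the APOE values was not tested. APOC1 (chromosome 1q, 536580076 to 536792391), a small exchangeable apolipoprotein in the same cluster, was higher instead, with 22.7 and 15.3 CPM in gentamicin kidneys, against 7.24, 7.34 and 8.45 CPM in control kidneys (log2 fold change 1.30 ± 0.21 SE, edgeR adjusted p = 0.00244). RefSeq's axolotl assembly UKY_AmexF1_1 also lists APOE and APOC1 as neighbours. APOH, a phospholipid-binding plasma protein, had 57.5 and 56.9 CPM in gentamicin kidneys, against 41.1, 36.2 and 45.4 CPM in control kidneys in the model with the highest FPKM (log2 fold change 0.48 ± 0.13 SE, edgeR adjusted p = 0.0257). That call was lost in 7 of 17 alternatives, including the removal of either gentamicin library or of control library 2 (adjusted p 0.00259 to 0.138). The APOH model AMEX60DD031153, on the opposite strand inside it, held 32 counts in gentamicin libraries and 13 in control libraries (edgeR adjusted p = 0.196). APOM, a carrier of sphingosine phosphate, had 3 counts in gentamicin libraries and 4 in control libraries and was not tested.

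**Figure D3:**
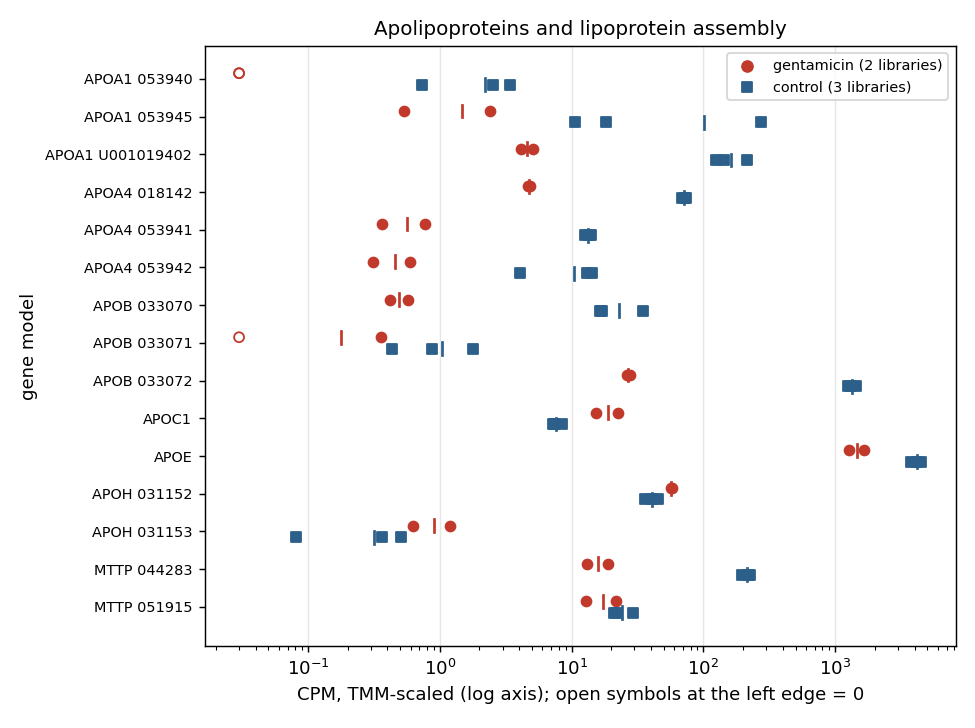
CPM (log axis) of the 15 tested apolipoprotein and lipoprotein assembly models; red circles are the 2 gentamicin libraries, blue squares the 3 control libraries, vertical ticks the group means and open symbols at the left edge values of 0. APOE lies at 1269 CPM or above in every library, APOB AMEX60DD033072 lies at 26.3 and 27.5 CPM in gentamicin kidneys and at 1251 to 1439 in control kidneys, and APOC1 and APOH are the models called higher.

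Hepatocytes make most plasma apolipoproteins in vertebrates, so their markers were read beside these genes. Of 10 tested hepatocyte models 2 were higher (ARG1 and HPX) and 3 lower (FGB, F2 and 1 model of SERPINA1), and the 18 models of the list had 127 and 109.5 summed CPM in gentamicin kidneys, against 238, 167 and 171 in control kidneys. F2 (prothrombin) had 3.45 and 4.47 CPM in gentamicin kidneys, against 118, 77.5 and 79.8 CPM in control kidneys (log2 fold change -4.52 ± 0.26 SE, edgeR adjusted p = 2.24e-05). The SERPINA1 model AMEX60DD011202 had 16.2 and 19.0 CPM in gentamicin kidneys, against 61.4, 38.1 and 44.2 CPM in control kidneys, and FGB had 11.2 and 10.1 CPM in gentamicin kidneys, against 21.7, 22.9 and 25.0 CPM in control kidneys. In all 3, both gentamicin libraries lay under every control library. ARG1 had 70.4 and 41.3 CPM in gentamicin kidneys, against 19.7, 9.31 and 8.96 CPM in control kidneys (edgeR adjusted p = 0.0212). HPX had 7.38 and 8.22 CPM in gentamicin kidneys, against 0.651, 1.02 and 0.939 CPM in control kidneys (edgeR adjusted p = 0.000152). For ARG1 and HPX the gentamicin libraries lay above every control library. Of all genes 55.3% had groups apart in either direction. The median log2 fold change of the 10 tested models was -0.04. Of them 20% were higher and 30% lower, against 13.3% and 13.4% of all genes. Some other defining liver transcripts were at or near 0. The ALB model AMEX60DD044373 ranged up to 0.572 CPM in gentamicin kidneys and up to 0.867 CPM in control kidneys. AHSG and TTR held at most 3 counts in any library. Further models that were not called lay above this. The SERPINA1 model AMEX60DD033957 had 14.2 and 20.5 CPM in gentamicin kidneys, against 8.55, 13.0 and 6.43 CPM in control kidneys. CP had 2.20 and 2.86 CPM in gentamicin kidneys, against 1.87, 1.82 and 1.73 CPM in control kidneys. The SERPINA1 model AMEX60DD011203 had 0.416 and 0.936 CPM in gentamicin kidneys, against 3.83, 1.67 and 1.73 CPM in control kidneys. The endothelial list had 0 of 12 tested models called by edgeR, against 26.8% of all genes. Its summed CPM was 358 and 405 in gentamicin kidneys, against 354, 464 and 437 in control kidneys. Interrenal steroid cells, which import and use cholesterol, lie along the amphibian kidney. Of the 12 symbols on their list 6 matched a model. Of 6 tested models 3 were lower (50%) and none higher, against 13.4% and 13.3% of all genes. Their list had 151 and 231 summed CPM in gentamicin kidneys, against 369, 301 and 342 in control kidneys. Their steroidogenic enzyme CYP11A1 had 28.9 and 40.0 CPM in gentamicin kidneys, against 85.2, 74.2 and 72.2 CPM in control kidneys (log2 fold change -1.16 ± 0.17 SE, edgeR adjusted p = 0.00143). The part of any of these lists in the members' differences was not tested.

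Remodelling proteins, which exchange and hydrolyse lipids in circulating particles, had none of 6 tested models called, against 26.8% of all genes. Their median log2 fold change was -0.27. Every model overlapped between groups, whereas 55.3% of all genes did not. The phospholipid transfer protein PLTP had 64.3 and 51.8 CPM in gentamicin kidneys, against 57.1, 78.2 and 69.0 CPM in control kidneys (log2 fold change -0.23 ± 0.16 SE). CETP, the cholesteryl ester transfer protein, had 28.9 and 33.2 CPM in gentamicin kidneys, against 30.5, 45.0 and 34.8 CPM in control kidneys in the model with the higher FPKM and 5.47 and 4.21 CPM in gentamicin kidneys, against 5.45, 8.58 and 3.54 CPM in control kidneys in an overlapping one. LPL, lipoprotein lipase, had 35.8 and 56.0 CPM in gentamicin kidneys, against 67.5, 51.5 and 46.3 CPM in control kidneys. For each of these genes the values of the groups overlapped. The acyltransferase LCAT and the LPL model AMEX60DD014717 were under 3 CPM in every library. Adjusted p in edgeR ranged from 0.346 (PLTP) to 0.639 (CETP AMEX60DD015847), at an unadjusted p under 0.05 there was none, and no alternative called any of the 6, DESeq2 included.

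Uptake receptors were split. LRP1, a large receptor for APOE-bearing remnants and many proteases that is abundant in macrophages and mesenchymal cells of mammals, is divided into 4 adjacent models on chromosome 3q (499577450 to 500884798), which RefSeq lists as a single gene. The fourth, AMEX60DD029735, which had the highest FPKM of the 4, had 229 and 279 CPM in gentamicin kidneys, against 81.4, 105 and 90.5 CPM in control kidneys (log2 fold change 1.46 ± 0.15 SE, edgeR adjusted p = 0.000209). AMEX60DD029732 had 63.2 and 81.2 CPM in gentamicin kidneys, against 16.7, 22.7 and 20.2 CPM in control kidneys (log2 fold change 1.86 ± 0.17 SE, edgeR adjusted p = 0.00012), and AMEX60DD029734 had 57.6 and 69.0 CPM in gentamicin kidneys, against 19.1, 22.8 and 23.3 CPM in control kidneys (log2 fold change 1.54 ± 0.14 SE, edgeR adjusted p = 0.000134). AMEX60DD029733, the piece with the fewest counts, had 17.8 and 27.0 CPM in gentamicin kidneys, against 6.84, 7.85 and 7.73 CPM in control kidneys (log2 fold change 1.58 ± 0.21 SE, edgeR adjusted p = 0.000873). All 4 had more CPM in every gentamicin library than in any control library. Groups were apart, in either direction, for 55.3% of all genes. Fitted differences between the groups were 2.75- to 3.64-fold for the 4 models. As pieces of a single gene they are not independent of each other. Their summed counts gave a log2 fold change of 1.54 (edgeR adjusted p = 0.000118). The macrophage markers were also higher, at 2681 and 2169 summed CPM in gentamicin kidneys, against 399, 417 and 278 in control kidneys, and their part in the LRP1 difference was not tested. SCARB1, the receptor that takes cholesteryl ester from high density particles, overlapped between groups at 4.05 and 3.48 CPM in gentamicin kidneys, against 8.55, 3.13 and 6.36 CPM in control kidneys (edgeR adjusted p = 0.271), and it passed without control library 2 (adjusted p 0.0458 to 0.598).

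Of the genes that release cholesterol from lysosomes none passed. NPC1, the lysosomal membrane exporter, had 66.3 and 65.7 CPM in gentamicin kidneys, against 63.9, 66.8 and 56.8 CPM in control kidneys (log2 fold change 0.08 ± 0.12 SE). NPC2, the soluble carrier that hands sterol to it, had 253 and 230.4 CPM in gentamicin kidneys, against 293, 239 and 266 CPM in control kidneys (log2 fold change -0.14 ± 0.13 SE). Levels of both genes overlapped between groups. LIPA, the acid lipase, had 23.1 and 19.1 CPM in gentamicin kidneys, against 18.9, 15.6 and 11.1 CPM in control kidneys. The groups were apart, but LIPA did not pass (edgeR adjusted p = 0.162). It overlaps the gene models RNLS and ANKRD22, and it passed with total-count scaling and without a filter (adjusted p 0.0192 to 0.541). NPC1 passed with total-count scaling, under which the median gene is itself higher by 0.33 (adjusted p 0.0281 to 0.981). SOAT1 (chromosome 1q, 807699820 to 808152314), which esterifies cholesterol for storage, was higher, with 181 and 186 CPM in gentamicin kidneys, against 96.4, 87.4 and 92.7 CPM in control kidneys (log2 fold change 0.99 ± 0.11 SE, edgeR adjusted p = 0.000295). Its values were close within each group, 1.99-fold higher after gentamicin, and the call held in every alternative.

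Efflux transporters had 1 of 4 tested models higher and 1 lower, both named ABCA1. Each is 25% of the 4 models, against 13.3% higher and 13.4% lower of all genes. ABCA1 exports cholesterol to APOA1, and AMEX60DD044451, the model with the highest FPKM (chromosome 6q, 341164732 to 341406145), had 109.8 and 101 CPM in gentamicin kidneys, against 39.1, 46.5 and 33.1 CPM in control kidneys (log2 fold change 1.41 ± 0.15 SE, edgeR adjusted p = 0.000303). The 6p model AMEX60DD043497 went the other way, with 0.952 and 1.51 CPM in gentamicin kidneys, against 4.07, 5.45 and 3.90 CPM in control kidneys (log2 fold change -1.85 ± 0.35 SE, edgeR adjusted p = 0.00587). That call was lost without gentamicin library 1 and on unfiltered FPKM (adjusted p 6.56e-05 to 0.0659). A 1p model, AMEX60DD013570, had 3.99 and 3.85 CPM in gentamicin kidneys, against 3.26, 3.13 and 3.61 CPM in control kidneys and did not pass (edgeR adjusted p = 0.555). These models lie on different chromosome arms, and the difference between them was not tested. Summed to 1 row, ABCA1 had a log2 fold change of 1.22 (edgeR adjusted p = 0.000329). ABCG1, which exports sterol to mature high density particles, had 31 counts in gentamicin libraries and 3 in control libraries in AMEX60DD047121, a ratio of 11.4 after scaling (95% counting interval 3.57 to 58.5), and was below the filter of the test. Of the 31 counts 23 were from gentamicin library 1. ABCG8, the sterol transporter of bile and gut, held 14 counts in gentamicin libraries, all in library 1, and 35 in control libraries (edgeR adjusted p = 0.566). The ABCA1 model AMEX60DDU001012415 and the ABCG1 model AMEX60DD017518 had no count.

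**Figure D4:**
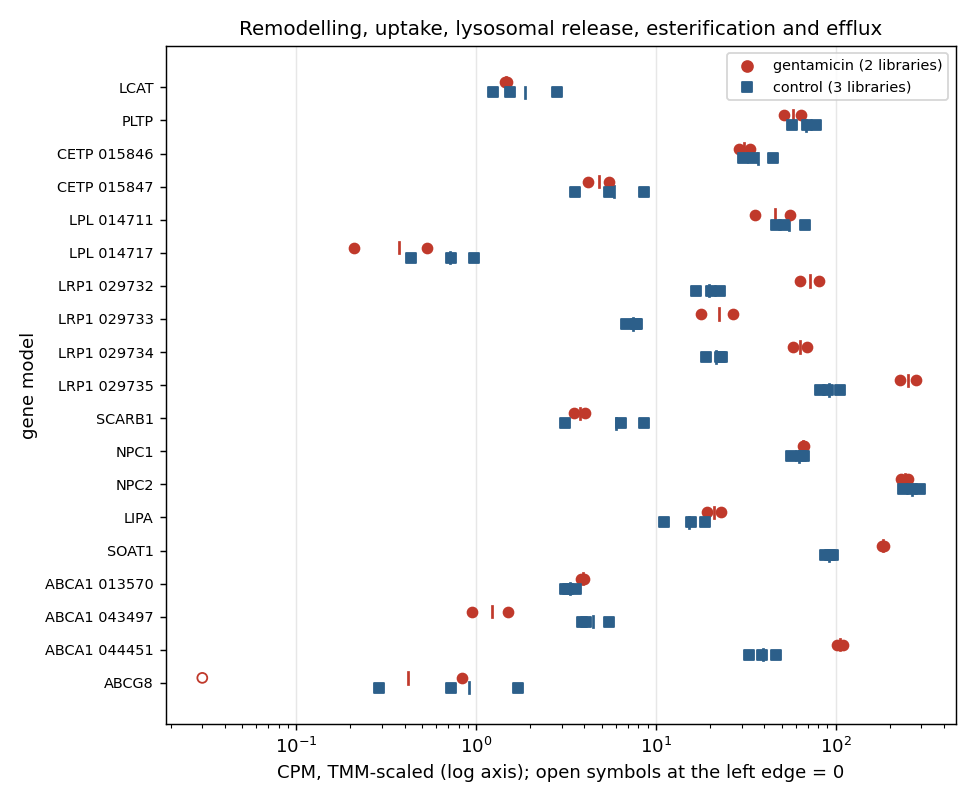
CPM (log axis) of the 19 tested models of remodelling, uptake, lysosomal release, esterification and efflux; red circles are the 2 gentamicin libraries, blue squares the 3 control libraries, vertical ticks the group means and open symbols at the left edge values of 0. The 4 LRP1 models, SOAT1 and ABCA1 AMEX60DD044451 lie to the right of their controls and were called higher. LIPA and ABCA1 AMEX60DD013570 also lie to the right of their controls and were not called. The remodelling proteins overlap between groups, and 55.3% of all genes do not.

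Across the 34 tested models of lipoproteins and transport, 10 were lower and 8 higher, or 29.4% and 23.5%, against 13.4% and 13.3% of all genes. Their median log2 fold change was -0.31. When models of a symbol were summed, 5 of the 21 matched symbols were lower and 5 higher, since several models then count as 1 gene. APOM and ABCG1 were not tested there. Over all genes that setting gave 2589 lower and 2577 higher of 17182 tested. Apolipoproteins and assembly genes had 1810 and 1407 summed CPM in gentamicin kidneys, against 6651, 6155 and 5645 in control kidneys. The uptake receptors had 372 and 459.7 summed CPM in gentamicin kidneys, against 133, 162 and 148 in control kidneys. The efflux transporters had 117 and 107 summed CPM in gentamicin kidneys, against 48.2, 55.9 and 41.0 in control kidneys. Each of these sums was separate between groups, the first lower and the others higher after gentamicin. In the apolipoprotein sum APOE was largest, with 1648 and 1269 CPM in gentamicin kidneys, against 4508, 4203 and 3733 CPM in control kidneys. The APOB models also weigh there, with 28.3 and 26.8 summed CPM in gentamicin kidneys, against 1344, 1456 and 1268 in control kidneys. The receptor sum mostly follows the LRP1 pieces. The efflux sum mostly follows ABCA1 AMEX60DD044451, with 110 and 101 CPM in gentamicin kidneys, against 39.1, 46.5 and 33.1 CPM in control kidneys. SCARB1 was not called, and ABCA1 AMEX60DD043497 was lower.

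**Figure D5:**
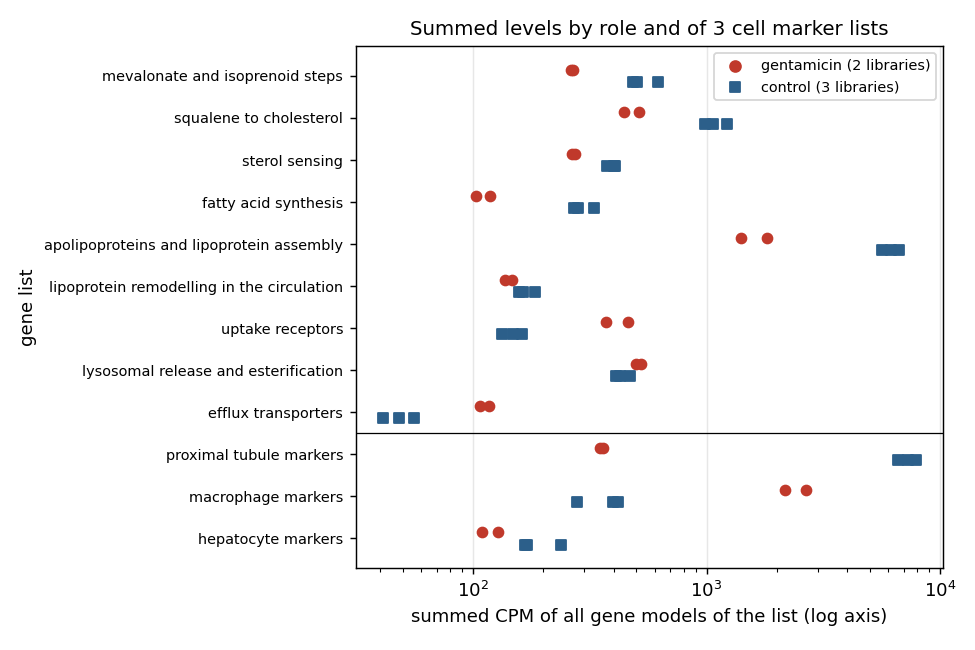
Summed CPM (log axis) of all gene models of each role and, below the line, of the proximal tubule, macrophage and hepatocyte marker lists; red circles are the 2 gentamicin libraries and blue squares the 3 control libraries. Apolipoproteins are at 1810 and 1407 in gentamicin kidneys against 5645 to 6651 in control kidneys, proximal tubule markers at 348 and 360.3 against 6604 to 7934, and macrophage markers at 2681 and 2169 against 278 to 417.

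Other genes of the same pathways were read from lists of 115 symbols, of which 103 matched and 115 models were tested. Of these 42 were lower and 14 higher, or 36.5% and 12.2%, against 13.4% and 13.3% of all genes. Their median log2 fold change was -0.32. The lower count was 22 without gentamicin library 1 and 22 without gentamicin library 3. The higher count was 5 and 6 without these libraries, 8, 9 and 9 without control libraries 1, 2 and 3, 9 with the label number as a block, and 26 with total-count scaling. A rule that takes the smallest p per list and direction gave 34 models, and 19 of these passed in every alternative that gave a value. The alternative with models of a symbol summed gave none for them.

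The list of other isoprenoid and dolichol enzymes had 3 of 10 tested models lower (30%) and 2 higher (20%), against 13.4% and 13.3% of all genes. It also holds the acetoacetyl-CoA thiolases ACAT2 and ACAT1, and both were lower. ACAT2 had 34.8 and 32.7 CPM in gentamicin kidneys, against 89.5, 74.3 and 76.3 CPM in control kidneys (log2 fold change -1.24 ± 0.13 SE, edgeR adjusted p = 0.000268). ACAT1 had 101 and 105 CPM in gentamicin kidneys, against 258, 209 and 201 CPM in control kidneys (log2 fold change -1.11 ± 0.14 SE, edgeR adjusted p = 0.000747). NUS1, a subunit of the dolichol-making enzyme, was lower, with a log2 fold change of -0.42, and PDSS1, of the ubiquinone side chain, was higher, with a log2 fold change of 0.46. Both small changes were lost whichever gentamicin library was left out.

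Sterol modifying enzymes had 11 of 19 tested models lower and 1 higher (median log2 fold change -0.87). These shares were 57.9% and 5.26%, against 13.4% and 13.3% of all genes. POR, the reductase that passes electrons to CYP51A1 and SQLE, had 122 and 137 CPM in gentamicin kidneys, against 387, 279 and 293 CPM in control kidneys (log2 fold change -1.30 ± 0.17 SE, edgeR adjusted p = 0.000846). FAXDC2, a relative of the sterol oxidases, had 78.1 and 77.9 CPM in gentamicin kidneys, against 143, 147 and 137 CPM in control kidneys (log2 fold change -0.87 ± 0.11 SE, edgeR adjusted p = 0.000647), and CYP46A1, the cholesterol hydroxylase of mammalian brain, had 18.6 and 20.2 CPM in gentamicin kidneys, against 53.6, 43.3 and 43.0 CPM in control kidneys (log2 fold change -1.26 ± 0.15 SE, edgeR adjusted p = 0.000487). The exception was CH25H (chromosome 8q, 372198327 to 372200677), which makes an oxysterol in activated macrophages of mammals and had 31.4 and 22.8 CPM in gentamicin kidneys, against 1.71, 2.84 and 3.40 CPM in control kidneys (log2 fold change 3.34 ± 0.28 SE, edgeR adjusted p = 8.71e-05). It was 10.2-fold higher. Sensing genes beyond the members had 1 of 11 tested models lower, ERLIN2 (-0.97 on the log2 scale), and 2 higher, among them RNF139 (0.40). These shares, 9.09% and 18.2%, are near the 13.4% and 13.3% of all genes. The call of RNF139 was lost whichever library was left out.

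Fatty acid and triglyceride synthesis genes beyond the members had 8 of 20 tested models lower and none higher. Of all genes 13.4% were lower and 13.3% higher. DGAT2 (chromosome 7q, 933882851 to 934004770), the last enzyme of triglyceride synthesis, had 18.6 and 14.0 CPM in gentamicin kidneys, against 285, 189 and 255 CPM in control kidneys (log2 fold change -3.90 ± 0.24 SE, edgeR adjusted p = 2.63e-05), and the elongase ELOVL5 had 58.4 and 52.8 CPM in gentamicin kidneys, against 137, 118 and 128 CPM in control kidneys (log2 fold change -1.20 ± 0.12 SE, edgeR adjusted p = 0.000235). DGAT2 was 14.9-fold lower, with both gentamicin libraries far under every control. AMEX60DD013424, named both MOGAT3 and DGAT2, had 0.238 and 0.156 CPM in gentamicin kidneys, against 8.22, 7.20 and 6.58 CPM in control kidneys (log2 fold change -5.17 ± 0.37 SE, edgeR adjusted p = 3.42e-05). Of 6 other lipoprotein factors tested, LIPC, hepatic lipase, had 0.714 and 0.728 CPM in gentamicin kidneys, against 12.7, 14.8 and 17.6 CPM in control kidneys (log2 fold change -4.37 ± 0.27 SE, edgeR adjusted p = 1.62e-05), LIPG, endothelial lipase, was lower (log2 fold change -0.71; not called without gentamicin library 3), and ANGPTL4, an inhibitor of LPL, was higher (log2 fold change 0.85; not called without gentamicin library 1). Adipocyte markers, which include lipid droplet genes, had 3 of 5 tested models lower and 1 higher. That is 60% and 20%, against 13.4% and 13.3% of all genes. Both CIDEC models (2.59- and 3.30-fold) and LIPE (1.38-fold) were lower. LEP was higher, with no counts in control kidneys and 29 and 31 counts in gentamicin kidneys. The adipocyte list had 53.2 and 58.3 summed CPM in gentamicin kidneys, against 71.9, 89.7 and 100.4 in control kidneys. ADIPOQ was at 0 counts in every library. The part of this list in the differences of the lipid synthesis genes was not tested.

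Other receptors had 4 of 14 tested models lower (28.6%) and 3 higher (21.4%), against 13.4% and 13.3% of all genes. LRPAP1 (chromosome 6q, 1355361714 to 1355471753), the chaperone of LRP1 and related receptors, had 176 and 151 CPM in gentamicin kidneys, against 893, 868 and 848 CPM in control kidneys (log2 fold change -2.41 ± 0.13 SE, edgeR adjusted p = 9.1e-06). It was 5.32-fold lower while LRP1 was higher in the same libraries. VLDLR was lower (log2 fold change -1.40), as was STAB1 (-0.57), and SORL1, a sorting receptor for lipoprotein and other cargo, was higher at 188 and 247 CPM in gentamicin kidneys, against 108, 132 and 112 CPM in control kidneys (log2 fold change 0.89 ± 0.15 SE, edgeR adjusted p = 0.00352). Neighbouring models named STAB2 were higher as well, at under 4 CPM in every library. STAB1 and both STAB2 calls were lost whichever gentamicin library was left out.

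Sterol transfer and lipid droplet genes had 11 of 28 tested models lower and 3 higher (median log2 fold change -0.41). These shares were 39.3% and 10.7%, against 13.4% and 13.3% of all genes. SCP2, a sterol carrier of peroxisomes, had 220.3 and 198 CPM in gentamicin kidneys, against 558, 495 and 454 CPM in control kidneys (log2 fold change -1.27 ± 0.14 SE, edgeR adjusted p = 0.000316), and OSBPL5, an oxysterol-binding relative, had 21.5 and 25.3 CPM in gentamicin kidneys, against 89.9, 94.97 and 87.6 CPM in control kidneys (log2 fold change -1.96 ± 0.13 SE, edgeR adjusted p = 2.18e-05). GRAMD1B, which moves cholesterol from the plasma membrane, was lower at -1.26 on the log2 scale. PLIN2 (chromosome 6p, 1231601442 to 1231619492), which coats lipid droplets, was higher, with 158 and 128 CPM in gentamicin kidneys, against 59.5, 46.2 and 64.8 CPM in control kidneys (log2 fold change 1.33 ± 0.16 SE, edgeR adjusted p = 0.000657). NCEH1, which hydrolyses cholesteryl ester, and OSBPL9 were higher at 0.55 and 0.52 on the log2 scale, and each call was lost without 1 of the gentamicin libraries. Among ABC lipid transporters 2 of 7 tested models were lower and 2 higher, 28.6% each, against 13.4% and 13.3% of all genes. ABCG2 had 17.8 and 18.8 CPM in gentamicin kidneys, against 61.8, 96.0 and 89.7 CPM in control kidneys (log2 fold change -2.17 ± 0.21 SE, edgeR adjusted p = 0.000202), and ABCG4, a relative of ABCG1, had 22.6 and 18.7 CPM in gentamicin kidneys, against 8.63, 8.58 and 8.53 CPM in control kidneys (log2 fold change 1.27 ± 0.16 SE, edgeR adjusted p = 0.000731). The smaller changes of ABCA2 (-0.64) and ABCA3 (0.48) were lost whenever either gentamicin library was left out.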

How the data were processed

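RNA was extracted from kidneys with TRIzol and sequencing libraries were made with an NEBNext Ultra kit, per the labels' protocols. Tools named in the submitters' processing notes are CASAVA 2.19, fastp, HISAT2 2.0.5, featureCounts 1.5.0-p3 and DESeq2 1.20.0. Neither the genome build nor the use of strand is given in the sources used here, so reads of overlapping models cannot be told apart. Of the 59 tested models, 19 overlap another model with counts, and 13 of these a model with at least 10% as many counts. Coordinates are those of the deposited tables.

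The authors deposited raw counts per gene and FPKM per gene for 5 libraries, with the names of both tables exchanged: the values show that the table named for FPKM holds whole-number counts. The deposited FPKM equal counts over length and library total times 1 factor per library (0.8835 and 0.8387 for gentamicin, 1.0943, 1.0735 and 1.0453 for control). No row lacks a gene, and library totals were 13674201 to 16404879 counts.

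Counts were fitted with edgeR 4.0.16 in R 4.3.3 over the whole table: filterByExpr (minimum count 10, minimum total 15), TMM, robust quasi-likelihood test of the group, two-sided, Benjamini-Hochberg over 22006 genes, called at an adjusted p under 0.05. An SE is the log2 fold change over the root of F. Against a group at 0, the bound sets 3 counts over the group, and the interval of a ratio on few counts is exact binomial (Clopper-Pearson, 95%). Counting error is all that these intervals and bounds cover. The procedure was tested on simulated counts, in which the share of wrong calls came out well above the nominal level, so calls near the threshold carry less weight. The first criterion set for recovering changed genes was missed, and after that result was seen it was replaced by one restricted to well-counted genes. The labels do not say whether their numbers pair animals. The correlation of same-numbered deviations across genes was 0.0092, which cannot settle it.

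Alternatives were DESeq2 1.42.0, limma-voom (limma 3.58.1), other scalings, other filters, the label number as a block, each library left out, limma on log2(FPKM + 1) or log2(FPKM + 0.1), and gene models of a symbol summed. All members are given, those with a mean log2 CPM of at least 1 by library. Of the other pathway genes, up to 3 called genes per list and direction are named, by p, with a mean log2 CPM of at least 1. The members, lists, tests and naming rule were chosen with earlier results of these data known, so no count over a list is independent support. Symbols are those of the deposited names, and neighbours were looked up in RefSeq's UKY_AmexF1_1, where 41 of 47 symbols are listed. A few items are not reported here.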

Additional observations from a re-analysis of the deposited data

How the results depend on the processing

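Each result was computed under up to 17 alternatives. Of 37 called members, 27 were called the same way in every alternative that gave a value and 10 were lost in at least 1, and none changed sign. Of 22 members not called, 10 passed in at least 1 alternative, and the fold change of 8 changed sign in at least 1. Over all genes, total-count scaling gave 6192 higher and 1895 lower, and unfiltered log2(FPKM + 1) gave 1914 lower, whose cause was not tested. Leaving out 1 library gave 1333 to 2770 higher and 1627 to 2963 lower genes, the lowest without a gentamicin library, which leaves a lone sample assumed to vary like the controls. For members the ranges were 7 to 8 higher and 22 to 31 lower, for sterol synthesis 10 to 15 lower, and for transport and lipoproteins 7 to 8 higher and 8 to 11 lower. Sterol synthesis had 0 higher models in every alternative. With models of a symbol summed, 5 members were higher, and 5 transport members were higher and 5 lower, because several models then count as 1 gene. Over all genes that setting gave 2577 higher and 2589 lower of 17182 tested. With the label number as a replicate block, 2118 genes were higher and 2367 lower, members had 7 and 27, and sterol synthesis 13 lower. Whether these numbers pair animals is not stated, and the correlation of deviations (0.0092) cannot settle it. With 2 gentamicin animals, models with group means under about 1 CPM, such as ABCG1, ABCG8 and APOM, held few counts. What limits these or the other models was not tested.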
